A study of Mus musculus with 8 samples.

Results

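The comparison was the normal change of gene expression in mouse spermatocytes between the leptotene/zygotene stages, LZ, and the pachytene/diplotene stages, PD, in wild-type (WT) males. It asked which functions fell, which rose, and by how much. Every gene above 1 FPKM (sequenced fragments per transcript length, scaled to each library) in at least 1 of 4 libraries was taken, which gave 13688 of the 23235 gene symbols in the files. The 4 libraries were WT LZ replicates 1 and 2 and WT PD replicates 1 and 2. They are 4 of 8 in the series, whose other 4 come from the same stages of Cnot4 fl/fl males carrying Stra8-Cre, a Cre active in premeiotic germ cells. All animals were C57BL/6 males aged 6 weeks, and the cells were sorted by flow cytometry from digested testis after Hoechst and propidium iodide staining. The control animals are called only WT, and no further allele is named for them. Duplicates are called biological replicates in the methods, but which animals gave each replicate is not stated, so the p-values measure the spread between these samples. The labels describe Trizol extracts and total RNA libraries, the methods describe amplified oligo-dT cDNA of sorted cells, and which of these was used was not determined.

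In leptotene and zygotene, programmed DNA double-strand breaks are made, strand exchange starts, and homologous chromosomes begin to pair along the synaptonemal complex. In pachytene the homologs are synapsed, crossovers mature, and the X and Y chromosomes are gathered in the sex body, where their genes are silenced. Pachytene cells also transcribe many genes of the later spermatid, and part of those mRNAs are stored before they are translated.

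Most genes of meiotic entry, DNA replication, the ribosome and the X chromosome fell from LZ to PD. Most genes of the sperm flagellum and of a list of testis energy isoforms rose. Among the 13688 genes tested, 5851 (42.7%) were called lower in WT PD and 3491 (25.5%) were called higher, where called means an adjusted p under 0.05 by limma. Quantile normalization gave 5016 lower and 4017 higher, and rescaling 5103 and 4209. The median change was -1.88 on the log2 scale among genes called lower and 2.04 among genes called higher. Changes beyond 1 on that scale were reached by 5085 of the genes called lower and by 3046 of those called higher, and changes beyond 5 by 99 and 275. Every called gene had values that did not overlap between the stages. Among all 13688 genes, called or not, values did not overlap in 7425 that were lower in WT PD and in 4593 that were higher. The 4346 genes that were not called had a median change of -0.13.

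Called genes, which were 9342 of the 13688 tested, held most of the summed FPKM. Genes called lower held 57.7% and 57.4% of the summed FPKM in WT LZ and 13.2% and 13.3% in WT PD. Genes called higher held 10.8% and 12.7% of it in WT LZ and 62.9% and 62.1% in WT PD. The genes not called held 31.4% and 29.8% in WT LZ and 23.8% and 24.4% in WT PD.

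The median change of all tested genes was -0.55. Quantile normalization moved it to -0.24, a shift of 0.31, and rescaling the libraries to a common median moved it to -0.28, a shift of 0.27. The median of each gene list below is therefore followed by its range over all alternatives, in brackets. Its distance from the median of all genes, named the relative median, is given for every list other than the marker lists. The counts of each list stand against the 42.7% lower and 25.5% higher of all genes. Where the sign of the median or the relative median differed under one of these scalings, that is said with the list. In sorted cell populations, fewer cells of a type and less RNA per cell cannot be told apart.

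The files hold FPKM and no read counts. Summed FPKM was 761361 and 703540 in WT LZ and 851877 and 847751 in WT PD. The number of gene symbols above 1 FPKM was 11734 and 11823 in WT LZ and 10103 and 10076 in WT PD, lower in both PD libraries. Spearman's rho across genes, which are not independent replicates, was 0.936 between the LZ libraries and 0.973 between the PD libraries, against 0.498 to 0.560 between stages. The number of reads per unit of FPKM relative to WT LZ replicate 1, taken from the commonest ratio among low values, was 1.06 for the other LZ library (226 of 1433 low genes) and 1.21 (163 of 1218) and 1.33 (154 of 1178) for the PD libraries. The study also reports total reads and mapping rates, which did not enter these ratios. There WT PD replicate 1 had fewer total reads than WT LZ replicate 1 and a higher mapping rate. The highest gene was Rn45s, the ribosomal RNA precursor, in WT LZ replicate 1, Rps28, a small-subunit ribosomal protein, in WT LZ replicate 2, Fabp9, a testis fatty acid-binding protein, in WT PD replicate 1 and Meig1, a protein of flagellum assembly, in WT PD replicate 2. Rn45s stood at 18155 and 0 FPKM in WT LZ and at 822 and 2951 FPKM in WT PD. Those values overlapped between the stages and the gene was not called.

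The stage labels were checked against marker lists. All 12 pachytene and diplotene markers rose, with a median change of 4.74 (4.41 to 5.17), and 10 of 12 leptotene and zygotene markers fell, with a median change of -2.83 (-4.31 to -1.69), against -0.55 for all genes. Ldhc, the testis form of lactate dehydrogenase, was at 147 and 254 FPKM in WT LZ and 10594 and 9725 FPKM in WT PD (log2 change 5.71, standard error 0.73, adjusted p = 0.000343). Ccna1, the cyclin of the meiotic divisions, was at 0.914 and 4.86 FPKM in WT LZ and 148 and 152 FPKM in WT PD (log2 change 5.49, standard error 0.61, adjusted p = 0.000173). Dmc1, the meiotic strand-exchange recombinase, was at 75.7 and 91.5 FPKM in WT LZ and 1.16 and 0.590 FPKM in WT PD (log2 change -5.51, standard error 0.29, adjusted p = 1.44e-05). In each of these genes both libraries of 1 stage stood far above both of the other. The exceptions among the LZ markers were Hormad1, an axis protein at 129 and 169 FPKM in WT LZ and 192 and 218 FPKM in WT PD that was not called, and Spo11, the enzyme that makes the meiotic breaks, which rose (14.5 and 30.2 FPKM in WT LZ, 134 and 147 FPKM in WT PD). Summed over the list, the LZ markers stood at 1607 and 1573 FPKM in WT LZ and 580.4 and 648 FPKM in WT PD. The PD markers stood at 291 and 394 FPKM in WT LZ and 12850.3 and 11964 FPKM in WT PD.

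**Figure D1:**
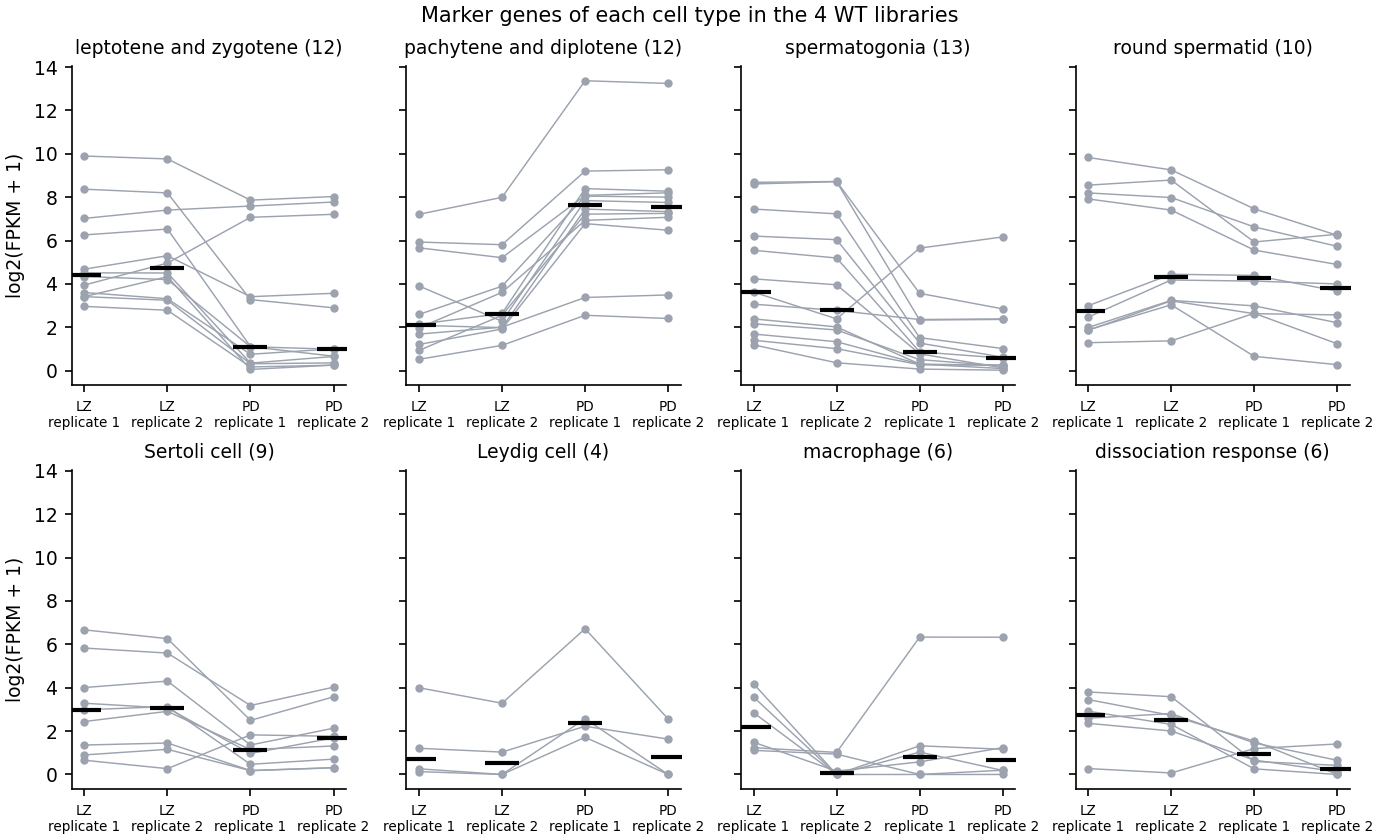
Levels of marker genes in the 4 WT libraries on a log2(FPKM + 1) axis, with 1 line per gene and a black bar at the median of each list. The pachytene and diplotene markers rose together, with a median change of 4.74, while 10 of 12 leptotene and zygotene markers and 10 of 13 spermatogonial markers fell.

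Markers of other cells were present in the libraries and moved with the stage in part. Of 13 spermatogonial markers tested, 10 fell and 1, Id4, rose, with a median of -1.93 (-5.50 to -1.48). The sum of that list was 1144 and 1126 FPKM in WT LZ and 74.4 and 88.3 FPKM in WT PD. Uchl1, a ubiquitin hydrolase of spermatogonia, was its highest gene in WT LZ (411 and 422 FPKM, against 10.9 and 6.22 FPKM in WT PD), while Nanos2, the marker of undifferentiated spermatogonia, was listed at 0 in all 4 libraries. Kit, the receptor of differentiating spermatogonia, was at 45.9 and 35.7 FPKM in WT LZ and 0.826 and 0.497 FPKM in WT PD. Of 9 Sertoli cell markers, 8 fell and 1, Dhh, rose, with a median of -1.85 (-2.41 to -1.09), and their sum was 195 and 168 FPKM in WT LZ and 19.8 and 36.9 FPKM in WT PD. Ctsl, a lysosomal protease, led that list in WT LZ at 101 and 75.9 FPKM and Clu, the secreted chaperone clusterin, led it in WT PD at 8.06 and 15.3 FPKM. Amh and Fshr, also members of the Sertoli cell list, stood at 0 throughout. The part of spermatogonial and Sertoli cell RNA in the changes reported here was not tested.

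Of 10 round spermatid markers, 4 fell and none rose, with a median of -0.96 (-1.29 to -0.016). Their sum was 1842 and 1539 FPKM in WT LZ and 435 and 270.2 FPKM in WT PD, led by Prm1, protamine 1, or in WT PD replicate 2 by Prm2. Prm1 stood at 911 and 612 FPKM in WT LZ and 176 and 74.8 FPKM in WT PD (log2 change -2.69, standard error 0.96, adjusted p = 0.0372), and its call was lost when any 1 library was left out, with changes from -3.30 to -2.08. Tnp2, a transition protein of condensing chromatin, was at 241 and 169 FPKM in WT LZ and 46.3 and 28.8 FPKM in WT PD, and its call was lost under rescaling and with any 1 library left out, with changes from -2.77 to -2.10. Prm1, Prm2 and Tnp2 were thus higher in the LZ libraries, while the acrosomal marker Acrv1 was at 4.54 and 17.2 FPKM in WT LZ and 16.5 and 15.0 FPKM in WT PD and was not called. What part RNA of other germ cells had in these levels was not tested.

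None of the 4 Leydig cell markers tested was called, with a median of 0.90 (-0.10 to 2.04), which was -0.10 without WT PD replicate 1. Insl3, the Leydig cell hormone, was at 15.0 and 8.75 FPKM in WT LZ and 104 and 4.90 FPKM in WT PD, so that WT PD replicate 1 stood apart from the other 3 libraries. Without WT PD replicate 2, Insl3 had a change of 3.08 and passed the test, as did Cyp17a1, a steroid-synthesis enzyme, with 2.50. The list summed to 17.2, 9.89, 116 and 7.07 FPKM in the order LZ 1, LZ 2, PD 1 and PD 2. None of 3 peritubular myoid markers was called, with a median of -0.79 (-1.06 to -0.056) and a relative median of -0.24 that turned to 0.19 under quantile normalization. Their sums were 5.74 and 5.77 FPKM in WT LZ and 3.89 and 2.45 FPKM in WT PD, led by Tagln, an actin-binding protein. Of 6 macrophage markers, 1 rose and the median was -0.89 (-1.93 to 5.21), which turned to 0.68 without WT LZ replicate 1. The sums were 38.8 and 2.05 FPKM in WT LZ and 82.9 and 82.4 FPKM in WT PD. Lyz2, lysozyme, was at 17.1 and 0 FPKM in WT LZ, and Fcgr3, an Fc receptor, was at 79.7 and 79.4 FPKM in WT PD against 1.35 and 1.02 FPKM in WT LZ. Endothelial markers (0 of 6 tested, led by Tie1 in WT LZ) summed to at most 0.737 FPKM and erythroid markers (0 of 5 tested, led by Alas2) to at most 0.936 FPKM in a library, and the hemoglobin genes Hba-a1, Hba-a2, Hbb-b1 and Hbb-b2 were listed at 0. Of 6 genes of the response to tissue dissociation, 4 fell and the median was -2.06 (-3.71 to -1.54), with sums of 39.0 and 29.8 FPKM in WT LZ and 6.27 and 2.76 FPKM in WT PD. Dusp1, an immediate-early phosphatase, fell from 13.0 and 11.0 to 0.516 and 0.337 FPKM, whereas Fos lost its call under quantile normalization, without WT LZ replicate 1 (-1.96) and without WT PD replicate 2 (-1.55), and Egr1 under both scalings and with any 1 library left out (-2.05 to -1.25). The part of these cells and of handling in the other changes was not tested.

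The largest falls by the rule for named genes were of germ-cell genes and general cell genes, many of them X-linked. Prss50, a testis serine protease on chromosome 9 (110760471 to 110767132 in mm9), was at 275 and 199.6 FPKM in WT LZ and 0.921 and 0.563 FPKM in WT PD (log2 change -7.08, standard error 0.33, adjusted p = 1.23e-05). Rhox13, an X-linked homeobox gene of germ cells, was at 181 and 206 FPKM in WT LZ and 0.610 and 0.782 FPKM in WT PD (log2 change -6.84, standard error 0.41, adjusted p = 1.92e-05). Cenpa, the histone H3 variant of centromeres, fell from 251 and 235 to 1.81 and 1.86 FPKM (log2 change -6.42, standard error 0.18, adjusted p = 7.26e-06). Ppp1ca, a catalytic subunit of protein phosphatase 1, fell from 222 and 247 to 2.98 and 1.32 FPKM (log2 change -6.27, standard error 0.29, adjusted p = 1.23e-05). Crabp1, which binds retinoic acid in the cytoplasm, fell from 390.2 and 420.1 to 4.05 and 4.15 FPKM, a change of -6.31. Taf7l, an X-linked homolog of a TFIID subunit, fell from 383 and 430.4 to 4.88 and 4.34 FPKM, a change of -6.18. The other 4 of the 10 largest falls were the X-linked genes Rpl39 (-6.58), Gm364 (-6.34), Fmr1nb (-6.31) and Rpl36a (-6.25).

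The 10 largest rises included 2 transporters. Slco6c1, an organic anion transporter, was at 0.419 and 1.85 FPKM in WT LZ and 257 and 271 FPKM in WT PD (log2 change 7.04, standard error 0.49, adjusted p = 2.91e-05). Slc22a16, a carnitine transporter of testis, was at 0.229 and 2.60 FPKM in WT LZ and 242 and 240.4 FPKM in WT PD (log2 change 6.85, standard error 0.73, adjusted p = 0.000149). Ppp1r27, a regulatory subunit of protein phosphatase 1, was at 0.272 and 0.773 FPKM in WT LZ and 269 and 245 FPKM in WT PD (log2 change 7.42, standard error 0.67, adjusted p = 7.22e-05). Als2cr12, a protein of the flagellum, was at 0.454 and 0.965 FPKM in WT LZ and 203 and 168 FPKM in WT PD, a change of 6.78. The predicted gene 4930522O17Rik was at 0 and 8.31 FPKM in WT LZ and 716 and 784 FPKM in WT PD, a change of 7.94 with a standard error of 1.18, which rests in part on the value of 0 in WT LZ replicate 1. The remaining 5 were 1700003C15Rik (7.24), Speer1-ps1 (7.12), 1700067G17Rik (6.76), 4930525D18Rik (6.76) and 4930556C24Rik, which was listed at 0 in both LZ libraries and at 109.7 and 104 FPKM in WT PD.

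**Figure D2:**
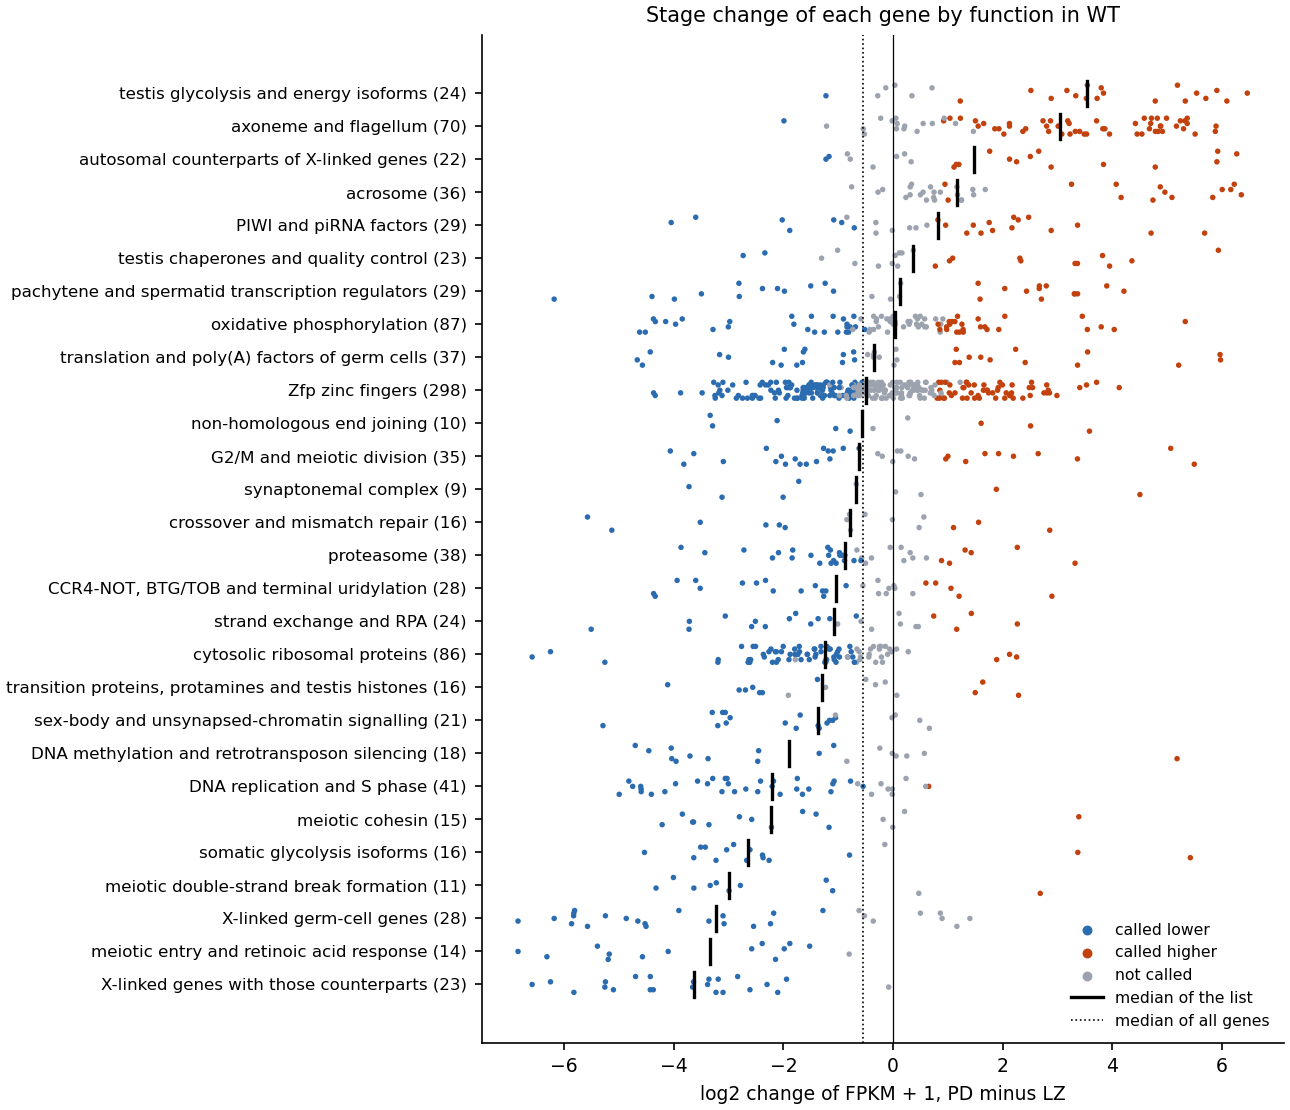
Change of each tested gene on the log2 scale, 1 row per list without the marker lists, with genes called lower in blue, called higher in orange and not called in grey, a black bar at the list's median and a dotted line at the median of all genes (-0.55). X-linked genes with counterparts (-3.64), meiotic entry (-3.34) and X-linked germ-cell genes (-3.23) lay lowest and the axoneme (3.04) and testis glycolysis (3.53) highest, while the medians of oxidative phosphorylation, Zfp zinc fingers and translation factors changed sign under quantile normalization or rescaling.

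Genes of meiotic entry fell almost without exception. Of 14 tested, 13 fell and none rose, with a median of -3.34 (-5.18 to -2.91) and a relative median of -2.79. Stra8, the retinoic acid target that starts meiosis, was at 330.1 and 293 FPKM in WT LZ and 8.70 and 6.47 FPKM in WT PD (log2 change -5.20, standard error 0.32, adjusted p = 2.10e-05). Its gene lies on chromosome 6 (34870163 to 34889342 in mm9). Dazl, an RNA-binding protein that licenses germ cells for meiosis, fell from 809 and 848 to 34.9 and 32.9 FPKM (log2 change -4.57, standard error 0.20, adjusted p = 1.23e-05). Sohlh1, a transcription factor of differentiating spermatogonia, fell from 73.0 and 64.9 to 1.42 and 0.542 FPKM, a change of -5.18. Receptors of retinoic acid were lower in level and fell as well, with Rara at 2.29 and 2.75 FPKM in WT LZ and 0.131 and 0.321 FPKM in WT PD and Rarg at 5.46 and 4.04 FPKM in WT LZ and 0.541 and 0.347 FPKM in WT PD. Tex101, a surface protein of germ cells, had the highest level of the list and fell by 1.88, to 232 and 261 FPKM. Crabp2 was the member not called, at 0.224 and 1.48 FPKM in WT LZ and listed at 0 in WT PD.

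Most genes that make the meiotic breaks fell. Of 11 tested, 9 fell and 1 rose, with a median of -2.99 (-3.98 to -1.22) and a relative median of -2.44. Rec114 (listed as 2410076I21Rik), a partner of the break machinery, fell from 61.9 and 58.7 to 1.89 and 2.25 FPKM (log2 change -4.32, standard error 0.27, adjusted p = 2.05e-05). Prdm9, the methyltransferase that places the breaks, fell from 21.8 and 21.7 to 0.275 and 0.576 FPKM (log2 change -4.01, standard error 0.37, adjusted p = 7.76e-05). Mei1 and Mei4, both needed for break formation, fell by 3.22 and 2.79 on the log2 scale. Atm, the kinase that answers the breaks, fell from 21.2 and 18.5 to 0.730 and 0.628 FPKM. Spo11 was the 1 member that rose (log2 change 2.68, standard error 0.45, adjusted p = 0.00124), with both PD libraries above both LZ libraries. The deposited values do not separate Spo11 isoforms.

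Strand exchange genes moved both ways. Of 24 tested, 13 fell and 4 rose (42.7% and 25.5% of all genes), with a median of -1.08 (-1.27 to -0.51) and a relative median of -0.53 (-0.27 under quantile normalization). Dmc1 fell by 5.51, as given with the markers. Rpa2 and Rpa3, subunits of the single-strand binding complex RPA, fell by 3.72 and 2.58, and the large subunit Rpa1 rose from 46.5 and 34.6 to 109.9 and 109 FPKM (log2 change 1.43, standard error 0.31, adjusted p = 0.00488). Psmc3ip (Hop2) rose from 93.2 and 116 to 511 and 495 FPKM (log2 change 2.27, standard error 0.34, adjusted p = 0.000710), and its partner in strand exchange, Mnd1, fell from 5.80 and 19.5 to 1.53 and 0.700 FPKM (log2 change -2.51, standard error 0.67, adjusted p = 0.0116). Brca1, a repair factor that also marks unsynapsed axes, fell from 11.1 and 9.29 to 0.298 and 0.382 FPKM, and Brca2, a mediator of strand exchange, fell from 23.6 and 20.5 to 9.55 and 9.12 FPKM. Hsf2bp, which binds BRCA2, and Fignl1 rose by 1.16 and 0.74. The call of Hsf2bp was lost with any 1 library left out (0.99 to 1.33) and that of Fignl1 without WT LZ replicate 1 (0.54) or WT PD replicate 2 (0.63).

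The synaptonemal complex did not move as 1 group. Of 9 genes tested, 4 fell and 2 rose (42.7% and 25.5% of all genes), with a median of -0.67 (-1.19 to -0.29) and a relative median of -0.12 (-0.95 under quantile normalization, -0.0074 under rescaling). Sycp1, the transverse filament, fell from 459 and 449.7 to 113 and 112 FPKM (log2 change -2.01, standard error 0.24, adjusted p = 0.000268). Sycp3, the lateral element, was at 650.2 and 906 FPKM in WT LZ and 785 and 799 FPKM in WT PD and was not called. Sycp2, its partner, was at 119 and 139 FPKM in WT LZ and 198 and 171 FPKM in WT PD and was not called either. The values of Sycp3 overlapped between the stages and those of Sycp2 did not. In the central element, Syce2 fell from 479.6 and 528 to 43.1 and 32.1 FPKM (log2 change -3.72, standard error 0.27, adjusted p = 3.08e-05), Tex12 fell by 1.72 and Syce1 rose from 147 and 179.8 to 604 and 601 FPKM (log2 change 1.88, standard error 0.33, adjusted p = 0.00159). Six6os1 (listed as 4930447C04Rik), a further central element protein, fell by 3.12. Syce1l, a relative of Syce1, rose from 6.55 and 5.32 to 164 and 148 FPKM (log2 change 4.50, standard error 0.47, adjusted p = 0.000138).

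Most cohesin genes fell. Of 15 tested, 11 fell and 1 rose, with a median of -2.22 (-2.35 to -1.40) and a relative median of -1.67. Smc3, the subunit common to all cohesin complexes, fell from 105 and 93.1 to 4.71 and 4.06 FPKM (log2 change -4.21, standard error 0.25, adjusted p = 1.82e-05). Rad21, the mitotic kleisin, fell by 3.84, and the meiotic kleisin Rec8 fell from 11.2 and 8.98 to 0.692 and 1.01 FPKM. Rad21l, the other meiotic kleisin, was at 7.42 and 4.78 FPKM in WT LZ and listed at 0 in WT PD. Smc1b, the meiotic SMC1, fell from 221 and 217 to 100.4 and 93.4 FPKM (log2 change -1.17, standard error 0.27, adjusted p = 0.00651) and stayed above its X-linked somatic form Smc1a, which fell to 0.204 and 0.187 FPKM. Stag3, the meiotic stromal antigen, was at 66.6 and 71.3 FPKM in WT LZ and 79.1 and 80.8 FPKM in WT PD and was not called. The cohesin protector Sgol2 was at 49.1 and 30.7 FPKM in WT LZ and 34.8 and 33.4 FPKM in WT PD, also not called, whereas Sgol1 fell by 3.66. Meikin (listed as 4930404A10Rik), a kinetochore regulator of meiosis I, was the 1 member that rose, from 4.17 and 2.34 to 41.6 and 43.4 FPKM (log2 change 3.39, standard error 0.51, adjusted p = 0.000787).

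Crossover genes held falls and rises. Of 16 tested, 6 fell and 3 rose (42.7% and 25.5% of all genes), with a median of -0.79 (-1.05 to -0.37) and a relative median of -0.23. Tex11, the X-linked partner of crossover proteins, fell from 92.4 and 81.0 to 0.757 and 0.924 FPKM (log2 change -5.57, standard error 0.25, adjusted p = 1.23e-05). Mlh3, a mismatch repair protein of crossover sites, rose from 3.36 and 3.49 to 11.8 and 12.3 FPKM (log2 change 1.56, standard error 0.29, adjusted p = 0.00223). Cntd1, a cyclin-like protein of crossover maturation, rose from 6.23 and 8.22 to 58.2 and 58.1 FPKM (log2 change 2.86, standard error 0.21, adjusted p = 3.43e-05). Msh5 fell by 1.97, and its partner Msh4 was at 4.83 and 7.44 FPKM in WT LZ and 3.36 and 2.85 FPKM in WT PD and was not called. Mus81, a resolvase of an alternative crossover path, rose by 1.10, a call lost without WT PD replicate 1 (1.06). Genes of non-homologous end joining also went both ways. Of 10 tested, 5 fell and 3 rose, with a median of -0.57 (-0.62 to -0.049) and a relative median of -0.023 that turned to 0.13 under quantile normalization and to 0.054 under rescaling. Xrcc6, the Ku70 subunit, fell from 47.2 and 42.0 to 3.49 and 3.81 FPKM (log2 change -3.29, standard error 0.22, adjusted p = 2.40e-05), and Xrcc5, the Ku80 subunit, was at 9.13 and 10.01 FPKM in WT LZ and 7.62 and 6.78 FPKM in WT PD and was not called. Xrcc4, the partner of the ligase, rose from 7.76 and 15.7 to 139.9 and 148 FPKM (log2 change 3.58, standard error 0.41, adjusted p = 0.000195). Lig4, that ligase, rose by 1.61 and Poll, a repair polymerase, by 2.51. Trp53bp1 (53BP1) fell from 17.9 and 18.2 to 10.2 and 9.96 FPKM. Polm fell by 1.05, and its call was lost under quantile normalization and without WT LZ replicate 1 (-0.71), WT PD replicate 1 (-0.96) or WT PD replicate 2 (-1.13).

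Most replication genes fell. Of 41 genes of DNA replication and S phase, 32 fell and 1 rose, with a median of -2.21 (-2.62 to -1.65) and a relative median of -1.65. The helicase subunits Mcm2, Mcm3, Mcm4 and Mcm5 fell, with changes of -4.995, -4.59, -4.60 and -4.60, while Mcm7 fell by 0.78. Mcm2 was at 58.4 and 46.4 FPKM in WT LZ and 0.526 and 0.815 FPKM in WT PD (log2 change -4.995, standard error 0.21, adjusted p = 1.23e-05). Fen1, the flap nuclease, was at 50.7 and 35.2 FPKM in WT LZ and 0.382 and 0.700 FPKM in WT PD (log2 change -4.82, standard error 0.26, adjusted p = 1.45e-05). Tk1, thymidine kinase, was at 30.2 and 24.8 FPKM in WT LZ and at 0.110 and 0 FPKM in WT PD. In these 3 genes both PD libraries stood under 1 FPKM. Pcna, the sliding clamp, stood apart from them at 373 and 379.6 FPKM in WT LZ and 367 and 378 FPKM in WT PD and was not called, as were Gmnn, the inhibitor of licensing, at 276 and 269 FPKM in WT LZ and 253 and 259 FPKM in WT PD, and Uhrf1 at 46.1 and 35.6 FPKM in WT LZ and 39.6 and 40.6 FPKM in WT PD. Gins1 rose by 0.65, a call that was lost under quantile normalization, without the trend and with any 1 library left out (0.58 to 0.72).

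Promoter windows of the replication list were searched for the E2F letters TTCCCGC on both strands. Windows running from before the gene start to just after it came from RefSeq (build GRCm38.p6), and 10805 of the tested genes were matched to 1 by symbol. The letters were found in 12 of 31 matched replication genes (38.7%), in 6 of 12 cohesin genes and in 5.26% to 17.4% of other lists. They were found in 8.29% of all tested genes and in 4.66% of all promoters of the table. They were present in 472 of 4705 genes called lower, 183 of 2738 called higher and 241 of 3362 not called. The windows of Mcm3, the helicase subunit (chr1:20820263-20820562, minus strand), and of Cdt1, the licensing factor (chr8:122567765-122568064, plus strand), are shown because both genes fell with the group, Cdt1 from 35.5 and 25.5 to 0.967 and 0.531 FPKM. Capitals mark the match, which appears as its reverse complement where the letters lie on the other strand, and a match is a description of letters only.
Mcm3: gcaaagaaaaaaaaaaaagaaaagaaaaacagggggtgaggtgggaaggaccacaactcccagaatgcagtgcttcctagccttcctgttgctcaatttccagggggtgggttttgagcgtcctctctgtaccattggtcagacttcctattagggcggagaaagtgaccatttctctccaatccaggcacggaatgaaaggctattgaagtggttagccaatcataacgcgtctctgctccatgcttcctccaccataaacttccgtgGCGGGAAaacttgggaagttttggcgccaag
Cdt1: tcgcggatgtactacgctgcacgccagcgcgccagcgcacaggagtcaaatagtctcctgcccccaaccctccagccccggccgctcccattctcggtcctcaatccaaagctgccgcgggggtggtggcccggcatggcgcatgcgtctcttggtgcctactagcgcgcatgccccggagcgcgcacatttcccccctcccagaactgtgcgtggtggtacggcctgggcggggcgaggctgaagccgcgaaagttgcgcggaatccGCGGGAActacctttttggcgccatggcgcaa

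Cell division genes moved both ways. Of 35 genes, 18 fell and 10 rose (42.7% and 25.5% of all genes), with a median of -0.62 (-0.81 to -0.24) and a relative median of -0.068, which was -0.46 under quantile normalization and turned to 0.017 under rescaling. Ccna2, the A-type cyclin of dividing somatic cells, fell from 131 and 139 to 14.3 and 15.5 FPKM (log2 change -3.10, standard error 0.22, adjusted p = 2.96e-05), while Ccna1 rose by 5.49. Among B-type cyclins, Ccnb1 fell from 165 and 167 to 49.8 and 45.4 FPKM, Ccnb2 rose from 110.3 and 114 to 230.0 and 220.4 FPKM, and the X-linked Ccnb3 fell by 3.63. Aurkc, the meiotic Aurora kinase, rose from 1.31 and 2.79 to 109 and 88.2 FPKM (log2 change 5.06, standard error 0.46, adjusted p = 7.46e-05), Aurka rose by 1.68 and Aurkb fell by 1.09. Hspa2, the chaperone of CDK1 in spermatocytes, rose from 60.1 and 55.2 to 589 and 615 FPKM (log2 change 3.36, standard error 0.38, adjusted p = 0.000184). Fbxo5 (EMI1), an inhibitor of the anaphase-promoting complex, fell from 26.9 and 27.4 to 0.639 and 0.732 FPKM (log2 change -4.06, standard error 0.21, adjusted p = 1.34e-05), and its relative Fbxo43 (EMI2) rose from 2.15 and 2.34 to 20.02 and 18.6 FPKM (log2 change 2.65, standard error 0.22, adjusted p = 5.69e-05). Cdk1 itself was at 46.4 and 42.4 FPKM in WT LZ and 48.0 and 45.8 FPKM in WT PD and was not called. Pttg1, securin, rose to 661 and 622 FPKM from 139 and 139 FPKM.

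Most X-linked genes fell. Of 526 X-linked genes tested, 406 (77.2%) fell and 5 (0.951%) rose, against 42.3% and 26.0% of 12682 autosomal genes. The median change was -2.46, which is -1.91 relative to all genes, and the medians of the 19 autosomes lay between -0.70 on chromosome 19 and -0.34 on chromosome 18. The X median was -2.05 under quantile normalization and -2.32 under rescaling. X-linked genes held 2.39% and 2.48% of summed FPKM in WT LZ and 0.246% and 0.222% in WT PD. The median X-linked gene stood at 7.08 and 7.26 FPKM in WT LZ and 0.346 and 0.267 FPKM in WT PD, and the median autosomal gene at 8.98 and 8.85 FPKM and at 6.13 and 5.98 FPKM. Both PD libraries were thus far below both LZ libraries for the X chromosome, while the autosomes differed by much less. The number of tested X-linked genes above 1 FPKM was 459 and 465 in WT LZ and 138 and 127 in WT PD.

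X-linked and autosomal genes with a high level at LZ were also compared, a choice that favors falls in both. Of 226 X-linked genes with a mean of at least 10 FPKM in WT LZ, 217 fell and none rose, and the median level left in WT PD was 1.73% of that in WT LZ. In 207 of them (91.6%) less than 10% was left. Among 6106 autosomal genes of that level the median left was 53.0%, and less than 10% was left in 1022 (16.7%). The 115 X-linked genes that were not called had a median LZ level of 1.03 FPKM, and 82 of them stood under 2 FPKM there. Along the chromosome, 15 of 16 windows of 10 Mb with at least 5 tested genes had a negative median, the lowest -3.27, and the exception was a window of 5 genes with a median of 0.62. Fmr1nb, a germ-cell antigen gene beside Fmr1, fell from 258 and 215 to 1.51 and 2.55 FPKM (log2 change -6.31, standard error 0.37, adjusted p = 1.73e-05). Gm364, a predicted gene, fell from 166 and 128 to 0.590 and 1.08 FPKM. The small nucleolar RNA Snora70, which lies inside Rpl10, was at 290.1 and 54.9 FPKM in WT LZ and listed at 0 in WT PD.

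The X-linked genes that rose were 5, all low in WT LZ. Gm4984 was at 3.60 and 2.005 FPKM in WT LZ and 38.7 and 33.9 FPKM in WT PD (log2 change 3.32, standard error 0.81, adjusted p = 0.00799), and its call was lost without WT LZ replicate 2 (3.02) or WT PD replicate 1 (3.23). The other 4 stayed under 5 FPKM in WT PD. They were 4930408F14Rik (4.42 and 4.63 FPKM), Gm14354 (1.12 and 1.63 FPKM, listed at 0 in WT LZ), 1700008I05Rik (1.22 and 1.19 FPKM) and Ssx9 (1.28 and 0.880 FPKM). Each lost its call with some library left out: Gm14354, 4930408F14Rik (2.02 to 2.47) and 1700008I05Rik (1.00 to 1.02) with any of the 4, and Ssx9 without WT LZ replicate 2 (0.58), WT PD replicate 1 (0.67) or WT PD replicate 2 (0.95). Ssx9 also lost its call with a pseudocount of 0.1 (2.40). On the Y chromosome, all 9 tested genes fell, with a median of -2.55. Ube1y1, a ubiquitin-activating enzyme, fell from 49.96 and 59.6 to 1.02 and 1.12 FPKM (log2 change -4.75, standard error 0.21, adjusted p = 1.23e-05). Eif2s3y, a translation initiation factor needed by spermatogonia, fell from 83.0 and 106 to 2.46 and 3.38 FPKM (log2 change -4.61, standard error 0.24, adjusted p = 1.44e-05). The smallest fall was that of Kdm5d, a histone demethylase, by 0.99.

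**Figure D3:**
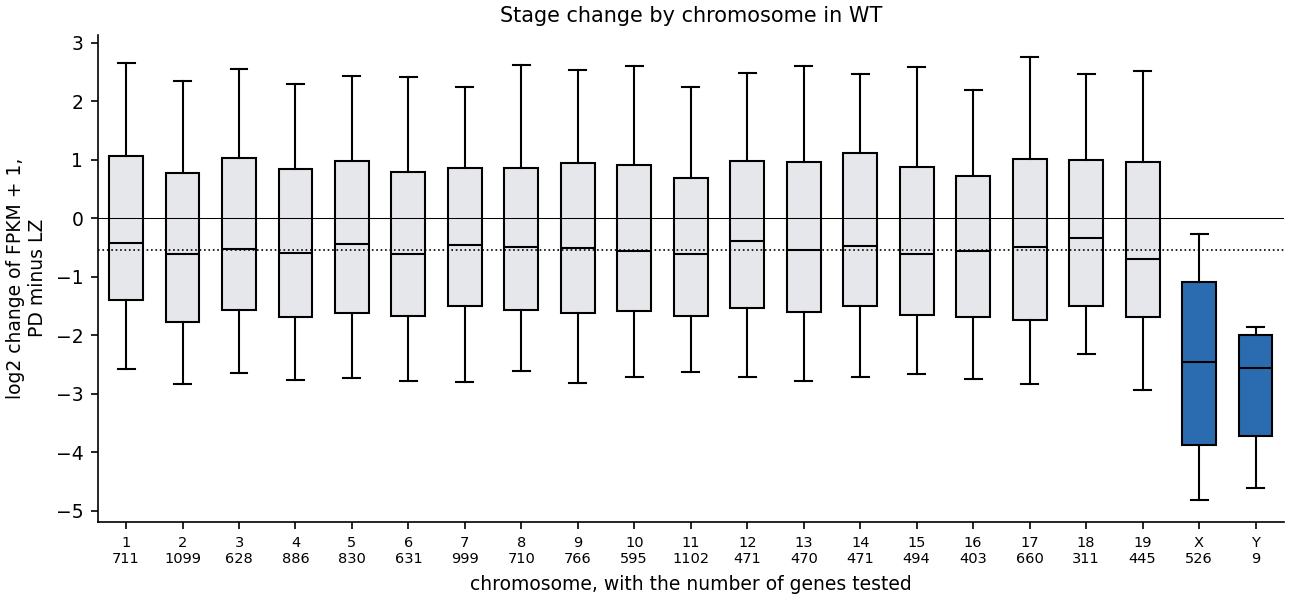
Distribution of the stage change on the log2 scale for each chromosome, with boxes at the quartiles, whiskers at the 10th and 90th percentiles, a line at the median, and X and Y in blue. The autosome medians lie between -0.70 and -0.34, and X (-2.46) and Y (-2.55) lie below all of them.

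Genes that signal unsynapsed chromatin and build the sex body fell in most cases. Of 21 tested, 16 fell and none rose, with a median of -1.37 (-1.60 to -1.03) and a relative median of -0.81. Scml2, an X-linked Polycomb protein of the sex body, fell from 74.4 and 90.8 to 1.46 and 0.834 FPKM (log2 change -5.29, standard error 0.29, adjusted p = 1.49e-05). Atr, the kinase of the silenced chromatin, was at 59.8 and 66.6 FPKM in WT LZ and 101 and 100.1 FPKM in WT PD, Mdc1, which spreads the signal, at 25.2 and 21.3 FPKM in WT LZ and 31.7 and 34.2 FPKM in WT PD, and H2afx, the histone it marks, at 33.5 and 43.6 FPKM in WT LZ and 36.6 and 38.8 FPKM in WT PD. None of these 3 was called. Topbp1, the activator of ATR, fell from 49.6 and 42.5 to 10.5 and 11.5 FPKM (log2 change -1.97, standard error 0.21, adjusted p = 0.000156), and Setdb1, a histone methyltransferase, fell from 49.1 and 57.9 to 19.96 and 20.7 FPKM (log2 change -1.35, standard error 0.20, adjusted p = 0.000682). Chek1 and Chek2, the checkpoint kinases, fell by 3.20 and 3.04.

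Most X-linked genes known from germ cells fell. Of 28 tested, 20 fell and none rose (77.2% and 0.951% of all X-linked genes), with a median of -3.23 (-5.45 to -0.62) and a relative median of -2.68. Prdx4, a peroxiredoxin, fell from 563 and 402 to 8.80 and 6.24 FPKM (log2 change -5.82, standard error 0.28, adjusted p = 1.25e-05). Nxf2, an mRNA export factor of germ cells, fell from 128 and 116 to 2.01 and 0.595 FPKM (log2 change -5.81, standard error 0.31, adjusted p = 1.45e-05). Tex13 fell by 5.86, Tex16 by 4.87 and the ubiquitin protease Usp26 by 4.66. The 8 members not called included the spermatid genes Akap4, the anchor protein of the fibrous sheath, at 4.65 and 7.67 FPKM in WT LZ and 4.21 and 3.54 FPKM in WT PD, and Tsga8 at 3.58 and 12.2 FPKM in WT LZ and 20.9 and 18.2 FPKM in WT PD.

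Where both genes were tested, the autosomal counterpart of an X-linked gene, often a retrogene, was the higher of the pair in the PD libraries. Of 22 counterparts tested, 14 rose and 2 fell, with a median of 1.48 (1.20 to 1.80) and a relative median of 2.03. Of 23 X-linked partners tested, 22 fell and none rose, with a median of -3.64 (-5.00 to -3.03) and a relative median of -3.09. In 12 of the 21 pairs with both genes tested the X-linked gene fell and the counterpart rose, in 6 the counterpart was not called, in 2 both fell, and in 1 (Gk2 and Gyk) the X-linked gene was not called. The counterpart was above its X-linked gene in 8 of 21 pairs in each LZ library and in 21 of 21 in each PD library. G6pd2, too low to be tested, was below G6pdx in PD (0 and 0.0820 against 0.265 and 0.243 FPKM). In the 21 pairs the counterpart's median share was 25.6% and 31.6% in WT LZ and 98.9% and 99.1% in WT PD.

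Pairs differed. Pgk2, the testis phosphoglycerate kinase, rose from 5.04 and 13.9 to 265 and 255 FPKM (log2 change 4.78, standard error 0.57, adjusted p = 0.000243) while Pgk1 fell from 30.5 and 32.7 to 2.25 and 2.72 FPKM. Cetn1, a centrin of the flagellum base, rose from 28.5 and 48.6 to 2493 and 2155 FPKM (log2 change 5.92, standard error 0.71, adjusted p = 0.000249) while Cetn2 fell from 82.8 and 86.8 to 4.04 and 2.15 FPKM. Prps1l1, a phosphoribosyl pyrophosphate synthetase, rose from 2.54 and 8.90 to 465 and 445 FPKM (log2 change 6.27, standard error 0.67, adjusted p = 0.000148) while Prps1 fell from 45.3 and 47.7 to 0.940 and 0.729 FPKM. These 3 counterparts were below their partners at LZ and far above them at PD. Rpl10l rose from 94.2 and 115 to 494 and 507 FPKM while Rpl10 fell from 849 and 746 to 25.4 and 15.5 FPKM, and Rpl39l rose from 279 and 321 to 1242 and 1378 FPKM while Rpl39 fell from 1057 and 1134 to 13.5 and 8.02 FPKM. The sum of Rpl10 and Rpl10l was nevertheless lower at PD than Rpl10 alone had been at LZ. Rpl36al, by contrast, was at 1154 and 1100.0 FPKM in WT LZ and 1188 and 1168 FPKM in WT PD and was not called. Eif1a, an initiation factor, rose from 30.1 and 33.4 to 69.5 and 70.0 FPKM, and its partner Eif1ax fell from 314 and 335 to 4.79 and 4.71 FPKM, so that Eif1a at PD stayed under the level Eif1ax had at LZ. Smc1b and Slc25a31, the testis ADP/ATP carrier, both fell along with their X-linked partners. Only uniquely mapped reads were kept upstream, so that levels of genes with close copies elsewhere, ribosomal proteins among them, are uncertain.

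**Figure D4:**
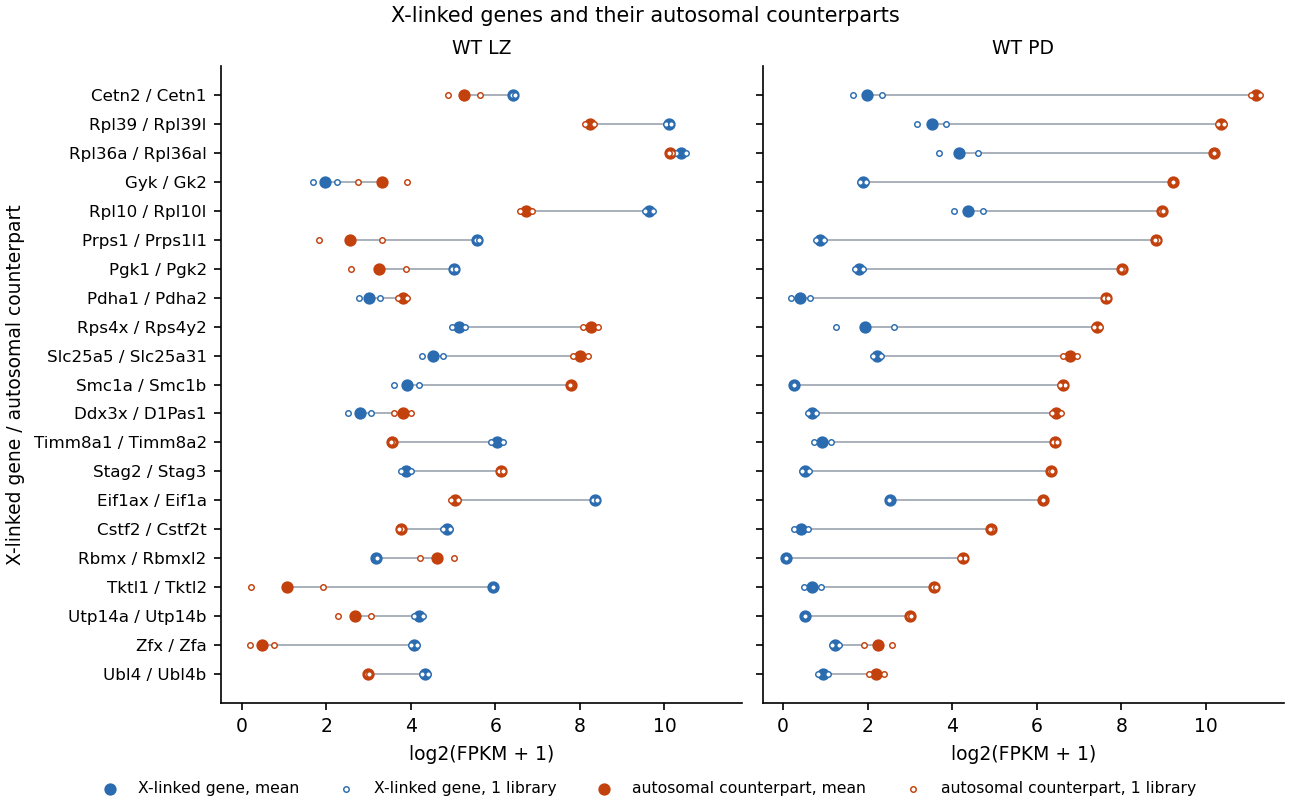
Levels of 21 X-linked genes and their autosomal counterparts on a log2(FPKM + 1) axis, LZ and PD in separate panels. Open circles are libraries and filled circles are means, and pairs are ordered by the counterpart's level in PD. The counterpart lies above the X-linked gene in 8 of 21 pairs at LZ and in all 21 at PD.

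Transcription regulators moved both ways. Of 29 tested, 12 fell and 13 rose, with a median of 0.12 (-0.25 to 1.59) and a relative median of 0.67, and without WT LZ replicate 1 the median was -0.25. Ovol2, a zinc-finger factor of spermatocytes, rose from 2.93 and 11.2 to 121 and 134 FPKM (log2 change 4.21, standard error 0.63, adjusted p = 0.000724). Rfx2, a regulator of ciliary genes in round spermatids, rose from 5.72 and 8.71 to 85.9 and 78.8 FPKM (log2 change 3.37, standard error 0.29, adjusted p = 5.98e-05), while Rfx1 and Rfx3 fell by 2.11 and 1.09. Mybl1 (A-MYB), the master regulator of pachytene genes, rose from 2.22 and 3.03 to 9.39 and 10.3 FPKM (log2 change 1.59, standard error 0.41, adjusted p = 0.01003), and Mybl2 (B-MYB), which serves dividing cells, fell from 12.8 and 10.3 to 0.805 and 0.771 FPKM. Tcfl5 rose from 49.8 and 36.1 to 270.4 and 294 FPKM, Tbpl1 (TRF2), a relative of TBP, rose from 29.3 and 37.0 to 334 and 335 FPKM, and Crem, the activator of postmeiotic genes, rose from 18.4 and 25.8 to 158 and 157 FPKM. Brdt, the testis bromodomain protein, rose by 2.67, and Kctd19 and Zfp541, partners in pachytene chromatin, rose by 3.90 and 2.04. Taf4b, a germ-cell TFIID subunit, fell from 57.6 and 59.7 to 1.55 and 2.14 FPKM (log2 change -4.40, standard error 0.25, adjusted p = 1.58e-05). Mga, Max and E2f6, parts of a complex that represses germ-cell genes, fell by 2.38, 1.24 and 1.98, and Pcgf6, a further subunit, rose by 2.67.

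Most called genes of the PIWI pathway rose. Of 29 genes tested, 15 rose and 7 fell, with a median of 0.82 (0.64 to 1.20) and a relative median of 1.37. Piwil1 (MIWI), the PIWI protein of pachytene piRNAs, rose from 14.02 and 3.86 to 229 and 215 FPKM (log2 change 4.71, standard error 0.53, adjusted p = 0.000192), while Piwil2 (MILI), which is made from fetal life on, was at 36.7 and 33.2 FPKM in WT LZ and 32.9 and 36.2 FPKM in WT PD and was not called. Tdrd6, a chromatoid body protein, rose from 0.637 and 2.001 to 112 and 114 FPKM (log2 change 5.68, standard error 0.34, adjusted p = 1.84e-05). Mael was at 247 and 356 FPKM in WT LZ and at 1278 and 1393 FPKM in WT PD, and Gtsf1, a cofactor of PIWI cleavage, rose from 135 and 201 to 1195 and 1244 FPKM. Both of these were already well expressed at LZ. Ddx25, an RNA helicase of the chromatoid body, rose by 3.37, and Ddx4 (VASA) rose by 0.96. The falls included Tex19.1, a silencer of retrotransposons, from 89.4 and 82.9 to 3.84 and 4.74 FPKM (log2 change -4.05, standard error 0.21, adjusted p = 1.43e-05), Fkbp6 from 382 and 384 to 33.4 and 28.2 FPKM (log2 change -3.60, standard error 0.18, adjusted p = 1.25e-05), and Mov10l1, the helicase of piRNA precursors, by 2.02.

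The core letters of the MYB motif, CAGTTG on either strand, were found in 4 of 23 matched PIWI genes (17.4%), in 5 of 19 testis glycolysis genes (26.3%), in 3 of 32 acrosome genes (9.38%), in 4.35% to 16.7% of other lists, in 11.3% of all tested genes and in 13.6% of all promoters. They were present in 14.1% of genes called higher and 9.33% of genes called lower. The E-box CACGTG, a palindrome, was found in 9 of 23 PIWI genes (39.1%), in 3.33% to 16.7% of other lists, in 10.2% of all tested genes, 11.8% of genes called lower, 9.24% of genes called higher and 7.24% of all promoters. The letters TGACGTCA, named CRE, were found in 0 of 23 PIWI genes and in 0 to 4.35% of other lists. They were present in 3.33% of all tested genes, 3.61% of genes called lower, 2.85% of genes called higher and 1.88% of all promoters. Piwil1 (chr5:128735996-128736295, plus strand) and Tdrd7 (chr4:45965085-45965384, plus strand), a chromatoid body protein that rose from 20.7 and 18.7 to 72.8 and 70.6 FPKM, are shown as risen members with the MYB letters in capitals. Both windows are from RefSeq, build GRCm38.p6.
Piwil1: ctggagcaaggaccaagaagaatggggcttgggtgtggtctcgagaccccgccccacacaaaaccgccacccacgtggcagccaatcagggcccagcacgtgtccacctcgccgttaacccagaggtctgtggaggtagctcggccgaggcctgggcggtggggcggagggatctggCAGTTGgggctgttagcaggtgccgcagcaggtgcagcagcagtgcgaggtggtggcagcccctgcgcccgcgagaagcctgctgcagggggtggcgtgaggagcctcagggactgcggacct
Tdrd7: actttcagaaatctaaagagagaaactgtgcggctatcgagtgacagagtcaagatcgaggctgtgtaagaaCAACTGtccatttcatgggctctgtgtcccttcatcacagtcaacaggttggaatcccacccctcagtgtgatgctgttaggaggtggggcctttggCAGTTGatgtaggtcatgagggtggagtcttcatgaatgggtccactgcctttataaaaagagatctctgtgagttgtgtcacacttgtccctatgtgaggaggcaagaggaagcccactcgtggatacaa

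Acrosome genes rose in part. Of 36 tested, 14 rose, none fell and 22 were not called, with a median of 1.17 (0.51 to 1.61) and a relative median of 1.72. Spink2, an inhibitor of acrosomal proteases, rose from 47.3 and 109 to 5417 and 5463 FPKM (log2 change 6.22, standard error 0.60, adjusted p = 9.52e-05). Zpbp2, a matrix protein that binds the zona pellucida, rose from 5.82 and 13.8 to 835 and 805 FPKM (log2 change 6.35, standard error 0.52, adjusted p = 5.08e-05). Dpy19l2, which anchors the acrosome to the nucleus, rose from 0.481 and 2.0001 to 144 and 156 FPKM (log2 change 6.16, standard error 0.39, adjusted p = 2.16e-05). The protease Acr rose by 4.74 and its binding protein Acrbp by 4.87. Members not called included Izumo1, the sperm protein of gamete fusion, at 1.45 and 1.598 FPKM in WT LZ and 5.27 and 1.37 FPKM in WT PD, Spam1, the sperm hyaluronidase, at 0 and 2.40 FPKM in WT LZ and 2.03 and 2.16 FPKM in WT PD, and Spaca1 at 6.98 and 20.8 FPKM in WT LZ and 20.04 and 11.7 FPKM in WT PD. The list held 0.0276% and 0.0636% of summed FPKM in WT LZ and 1.01% in each PD library, most of it Spink2.

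Most flagellar genes rose. Of 70 genes of the axoneme and flagellum, 53 rose and 1 fell, with a median of 3.04 (2.95 to 3.52) and a relative median of 3.60. Spag6, Spag16 and Spag17, proteins of the central pair, rose by 5.89, 5.37 and 5.24. Spag6 was at 3.30 and 7.03 FPKM in WT LZ and 342 and 354 FPKM in WT PD (log2 change 5.89, standard error 0.43, adjusted p = 3.35e-05). Zmynd10, an assembly factor of dynein arms, was at 2.31 and 3.13 FPKM in WT LZ and 231 and 203 FPKM in WT PD (log2 change 5.88, standard error 0.35, adjusted p = 1.84e-05). Lrrc6, which works with it, was at 1.90 and 1.80 FPKM in WT LZ and 130.0 and 128 FPKM in WT PD (log2 change 5.51, standard error 0.48, adjusted p = 6.31e-05). Meig1 rose from 248 and 431 to 13089 and 13953 FPKM and Ropn1l, a radial spoke protein, from 63.2 and 133 to 2705 and 2745 FPKM. Rsph1 of the radial spoke rose by 4.82, the tektin Tekt3 by 4.99 and the dynein heavy chain Dnahc8 by 4.88. Of intraflagellar transport, Ift140 rose by 3.08 and Ift81 by 0.92, and Ift52 was at 20.6 and 33.5 FPKM in WT LZ and 36.5 and 35.4 FPKM in WT PD and was not called. Proteins of the outer sheath that are made late, Odf1 at 11.7 and 19.4 FPKM in WT LZ and 7.82 and 12.9 FPKM in WT PD and Akap3 at 0.475 and 2.49 FPKM in WT LZ and 1.48 and 1.23 FPKM in WT PD, were not called. Tssk6, a kinase of late spermatids, fell by 1.99, a call lost under quantile normalization and without WT LZ replicate 2 (-1.41) or WT PD replicate 2 (-1.80). Tuba3a and Tuba3b, near-identical tubulins, were at 1012 and 861 and 1033 and 863 FPKM in WT PD, and reads may be split between them.

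The RFX letters GTTGCCA, on either strand, were found in 9 of 60 matched axoneme genes (15.0%), in 0 to 8.33% of other lists and in 4.46% both of all tested genes and of all promoters. They were present in 6.57% of genes called higher, 2.91% of those called lower and 4.91% of those not called. Zmynd10 (chr9:107547054-107547353, plus strand) and Drc1 (listed as Ccdc164, chr5:30281143-30281442, plus strand), a nexin-dynein subunit at 0.750 and 0.451 FPKM in WT LZ and 59.0 and 53.7 FPKM in WT PD, are shown as risen members, with the RFX letters in capitals, from RefSeq build GRCm38.p6.
Zmynd10: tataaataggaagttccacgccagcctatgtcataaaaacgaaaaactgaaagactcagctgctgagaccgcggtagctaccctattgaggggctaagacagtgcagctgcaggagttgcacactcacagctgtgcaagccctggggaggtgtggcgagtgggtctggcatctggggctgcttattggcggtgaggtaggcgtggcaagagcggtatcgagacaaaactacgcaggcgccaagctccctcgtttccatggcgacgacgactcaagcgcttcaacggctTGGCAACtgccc
Drc1: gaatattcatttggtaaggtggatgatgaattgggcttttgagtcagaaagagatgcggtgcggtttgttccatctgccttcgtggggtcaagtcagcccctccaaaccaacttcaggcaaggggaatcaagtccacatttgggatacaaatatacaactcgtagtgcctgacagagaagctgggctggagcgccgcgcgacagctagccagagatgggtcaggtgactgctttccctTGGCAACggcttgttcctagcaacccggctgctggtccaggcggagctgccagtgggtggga

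The list of sperm chromatin and histone genes moved both ways. It holds transition proteins, protamines and histones, with general histone variants such as H3f3a and H2afz among them. Of 16 genes tested, 7 fell and 3 rose (42.7% and 25.5% of all genes), with a median of -1.30 (-1.64 to -0.94) and a relative median of -0.75. The 3 that rose were the histones H2afy, Hist1h1t and H2afz, and no transition protein or protamine was called higher. Prm2, protamine 2, fell from 376 and 442 to 60.3 and 77.3 FPKM (log2 change -2.56, standard error 0.53, adjusted p = 0.00359), and Tnp1, transition protein 1, was at 293 and 253 FPKM in WT LZ and 98.1 and 52.3 FPKM in WT PD and was not called. Hist1h1a, a linker histone of early germ cells, fell from 20.1 and 20.3 to 0.236 and 0.216 FPKM (log2 change -4.11, standard error 0.22, adjusted p = 1.49e-05). Hist1h1t, the testis linker histone of pachytene cells, rose from 0.439 and 1.25 to 4.88 and 4.31 FPKM (log2 change 1.64, standard error 0.34, adjusted p = 0.00367). H2afz, a histone H2A variant, rose from 620.2 and 704 to 1859 and 1880.2 FPKM (log2 change 1.499, standard error 0.27, adjusted p = 0.00182). H2afy (macroH2A), which gathers on the sex body, rose by 2.29. The replacement histone H3f3b fell by 1.38, and H3f3a, which encodes the same protein, was at 782 and 793 FPKM in WT LZ and 681 and 747 FPKM in WT PD and was not called.

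Most genes on the list of testis energy isoforms rose and most somatic forms fell. The testis list also holds genes not limited to testis, such as Hk1 and Tpi1. Of its 24 genes tested, 18 rose and 1 fell, with a median of 3.53 (3.33 to 3.91) and a relative median of 4.09. Of 16 somatic forms, 13 fell and 2 rose, with a median of -2.64 (-3.46 to -2.07) and a relative median of -2.09. The somatic list still summed to more at PD (643 and 669 FPKM in WT LZ, 1128 and 1256 FPKM in WT PD), where Ldha led it. Slc2a3 (GLUT3), the glucose transporter of spermatids, on chromosome 6 (122677827 to 122751658 in mm9), was at 8.45 and 5.604 FPKM in WT LZ and 688 and 702 FPKM in WT PD (log2 change 6.46, standard error 0.33, adjusted p = 1.43e-05), while Slc2a1 (GLUT1) fell from 5.65 and 2.80 to 0 and 0.0991 FPKM. Pgam2 rose from 15.1 and 57.9 to 1544 and 1317 FPKM (log2 change 5.54, standard error 0.78, adjusted p = 0.000531) and Pgam1, the somatic phosphoglycerate mutase, fell from 117 and 115 to 13.1 and 13.5 FPKM. Gapdh fell from 211 and 237 to 9.22 and 8.22 FPKM (log2 change -4.53, standard error 0.21, adjusted p = 1.23e-05), and Gapdhs, the sperm form, was at 5.59 and 14.01 FPKM in WT LZ and 8.17 and 6.32 FPKM in WT PD and was not called. Ldha rose as well, from 19.18 and 29.4 to 997 and 1129.8 FPKM (log2 change 5.42, standard error 0.32, adjusted p = 1.84e-05), whereas Ldhb fell from 16.6 and 18.8 to 2.48 and 2.70 FPKM. Pfkm rose by 3.37 and Pfkl fell by 0.79. Gk2, a testis glycerol kinase, rose from 5.68 and 14.1 to 600.4 and 600.0 FPKM, and Slc9c1 (listed as Slc9a10), the sperm sodium/proton exchanger, rose from 0.508 and 0.160 to 90.7 and 87.3 FPKM. Aldoa was at 43.9 and 51.4 FPKM in WT LZ and 44.0 and 41.4 FPKM in WT PD and was not called. Eno1, at 0.000119 and 0.000113 FPKM in WT PD, has close copies in the genome, and its level is uncertain.

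Respiratory chain genes moved both ways. Of 87 tested, 27 fell and 25 rose (42.7% and 25.5% of all genes), with a median of 0.036 (-0.19 to 0.42) that turned to -0.19 under quantile normalization and to -0.011 without WT PD replicate 1, and a relative median of 0.59 (0.049 under quantile normalization). Cox8c, a testis subunit of complex IV, rose from 283 and 236 to 10346 and 10518 FPKM (log2 change 5.33, standard error 0.41, adjusted p = 3.99e-05), while its somatic form Cox8a fell from 693 and 599 to 48.1 and 33.7 FPKM. Cox6b2 rose from 238 and 212 to 3174 and 3101 FPKM (log2 change 3.80, standard error 0.41, adjusted p = 0.000149) and Cox6b1 fell from 1082 and 884 to 109 and 90.8 FPKM. Cox7b2 rose from 331 and 326 to 3663 and 4027 FPKM (log2 change 3.54, standard error 0.43, adjusted p = 0.000271), and the X-linked Cox7b fell from 70.7 and 66.3 to 3.21 and 1.18 FPKM. In all 3 pairs of complex IV the testis form was the higher at PD. Cyct, the testis cytochrome c, rose from 106 and 79.2 to 1179 and 1267 FPKM. Ndufa4 fell from 1405 and 1170.5 to 65.8 and 56.6 FPKM (log2 change -4.37, standard error 0.21, adjusted p = 1.25e-05), Atp5g2 fell by 4.62, and Ndufaf3, an assembly factor of complex I, rose by 4.03. The list held 6.88% and 6.76% of summed FPKM in WT LZ and 8.64% and 8.62% in WT PD.

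**Figure D5:**
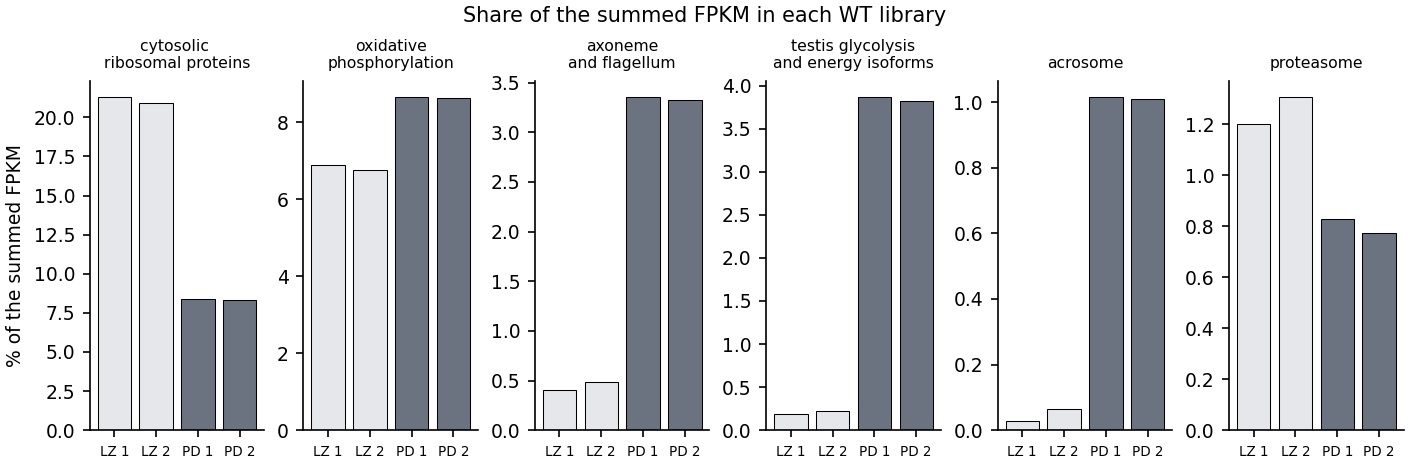
Percent of summed FPKM held by 6 gene lists in each WT library, as bars from 0 with a separate scale for each list. Ribosomal proteins held 21.3% and 20.9% at LZ and 8.38% and 8.31% at PD, whereas the axoneme list went from at most 0.488% to 3.35% and 3.33%.

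Most ribosomal protein genes fell. Of 86 tested, 60 fell and 3 rose, with a median of -1.24 (-1.59 to -0.85) and a relative median of -0.68. Their share of summed FPKM was 21.3% and 20.9% in WT LZ and 8.38% and 8.31% in WT PD. Rps19, a small-subunit protein, fell from 2826 and 2213 to 409.8 and 329 FPKM, and Rplp2, a stalk protein, fell from 3042 and 2418 to 541 and 522 FPKM. Rps28 was at 10514 and 9352 FPKM in WT LZ and 3889.6 and 4084 FPKM in WT PD (log2 change -1.31, standard error 0.30, adjusted p = 0.00616). The 3 that rose were Rpl10l (2.25), Rpl39l (2.12) and Rpl22l1 (1.89), each a paralog of a gene that fell. Rpl22l1 rose from 218 and 213 to 746 and 861 FPKM and its relative Rpl22 fell from 325 and 297 to 31.7 and 34.4 FPKM (log2 change -3.20, standard error 0.19, adjusted p = 1.83e-05). Rpl41 (6364 and 6436 FPKM in WT LZ and 4817 and 5184 FPKM in WT PD) and Rplp0 (1273 and 1214 FPKM in WT LZ and 1165 and 1015 FPKM in WT PD) were among the 23 that were not called.

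Protein quality control genes moved both ways. Of 38 proteasome genes, 22 fell and 6 rose, with a median of -0.88 (-1.13 to -0.50) and a relative median of -0.33 (-0.89 under quantile normalization). Psma8, the spermatocyte subunit of the core, rose from 27.1 and 32.0 to 312 and 294 FPKM (log2 change 3.32, standard error 0.31, adjusted p = 8.16e-05), and Psma7, the subunit whose place it takes, fell from 511 and 414 to 33.5 and 27.9 FPKM (log2 change -3.87, standard error 0.25, adjusted p = 2.38e-05). Psmc3ip, which was drawn in by its symbol and acts in strand exchange, is 1 of the 6 that rose. Psmc2 rose by 1.42, a call lost without WT LZ replicate 1 (1.30), and Psmc3 rose by 1.31, a call lost without WT LZ replicate 2 (1.27) or WT PD replicate 1 (1.21). The list held 1.20% and 1.31% of summed FPKM in WT LZ and 0.828% and 0.773% in WT PD. Of 23 testis chaperones and quality control genes, 11 rose and 2 fell, with a median of 0.37 (0.33 to 1.09) and a relative median of 0.92. Cct6b, a testis subunit of the CCT chaperonin, rose from 4.37 and 4.60 to 368 and 303 FPKM (log2 change 5.93, standard error 0.43, adjusted p = 3.19e-05). Clgn (calmegin), a chaperone of sperm surface proteins, rose from 30.2 and 22.8 to 394 and 375 FPKM (log2 change 3.82, standard error 0.39, adjusted p = 0.000126). Hsp90aa1 rose from 1639 and 1431 to 3247 and 3262 FPKM (log2 change 1.09, standard error 0.33, adjusted p = 0.0206), and Hsp90ab1, its constitutive relative, fell from 913 and 698 to 118 and 120.3 FPKM (log2 change -2.73, standard error 0.22, adjusted p = 4.67e-05). Calr3 fell by 2.34, a call lost with any 1 library left out (-2.43 to -2.25).

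Cnot4, the ubiquitin ligase of the CCR4-NOT complex and the gene deleted in the series, rose from 36.0 and 34.9 to 76.6 and 73.1 FPKM (log2 change 1.06, standard error 0.20, adjusted p = 0.00239). It lies on chromosome 6 (34972066 to 35083737 in mm9). Both PD libraries stood above both LZ libraries. Of 28 genes of CCR4-NOT, BTG/TOB and terminal uridylation, 15 fell and 5 rose (42.7% and 25.5% of all genes), with a median of -1.04 (-1.12 to -0.26) and a relative median of -0.49. Cnot1, the scaffold, rose from 30.7 and 30.7 to 74.96 and 69.4 FPKM (log2 change 1.20, standard error 0.21, adjusted p = 0.00148). Cnot6 and Cnot6l, deadenylases of the EEP type, fell by 0.86 and 2.49. Cnot8, a deadenylase of the other type, fell by 1.26, and its relative Cnot7 was at 17.0 and 35.4 FPKM in WT LZ and 18.7 and 21.7 FPKM in WT PD and was not called. Zfp36l1 and Zfp36l2, which bring the complex to AU-rich mRNAs, fell by 4.34 and 4.37. Btg2 fell from 17.8 and 14.9 to 0.0890 and 0.163 FPKM, and Btg4, its germ-cell relative, rose from 2.53 and 0.133 to 14.3 and 13.5 FPKM (log2 change 2.90, standard error 0.60, adjusted p = 0.00358). Btg1 rose by 0.78, a call lost without WT LZ replicate 2 (0.59), WT PD replicate 1 (0.82) or WT PD replicate 2 (0.73).

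Genes for mRNA storage and poly(A) tails moved both ways. Of 37 tested, 16 fell and 13 rose (42.7% and 25.5% of all genes), with a median of -0.35 (-0.42 to 0.021) that turned to 0.021 under rescaling and a relative median of 0.20 that turned to -0.042 under quantile normalization. Papolb (TPAP), the testis cytoplasmic poly(A) polymerase, rose from 3.65 and 5.66 to 209 and 201 FPKM (log2 change 5.21, standard error 0.81, adjusted p = 0.000892), and Papola, the common form, fell from 70.2 and 90.5 to 25.1 and 25.9 FPKM. Ybx2 (MSY2), which stores mRNAs of germ cells, rose from 37.7 and 44.4 to 495 and 484 FPKM (log2 change 3.55, standard error 0.20, adjusted p = 1.69e-05). Pabpc1, the main poly(A)-binding protein, rose by 2.41, and its retrocopies Pabpc2 and Pabpc6 rose by 5.97 and 5.96, though reads may be split among them. Cpeb1, which starts cytoplasmic polyadenylation, fell from 43.8 and 36.2 to 0.841 and 0.406 FPKM (log2 change -4.67, standard error 0.29, adjusted p = 2.11e-05), and Cpeb2 rose by 1.39. Boll, a relative of Dazl, rose from 24.3 and 30.5 to 57.0 and 64.7 FPKM, in the direction opposite to Dazl. Ythdc2, needed to leave the mitotic program, fell from 24.6 and 27.4 to 5.27 and 5.83 FPKM, and its partner Meioc (listed as Gm1564) was at 93.1 and 79.6 FPKM in WT LZ and 69.8 and 64.4 FPKM in WT PD and was not called. Mettl3 and Mettl14, which write m6A, fell by 1.63 and 1.98.

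Most silencing genes fell. Of 18 genes of DNA methylation and retrotransposon silencing, 11 fell and 1 rose, with a median of -1.90 (-2.47 to -1.08) and a relative median of -1.35. Dnmt1, which maintains methylation, fell from 45.4 and 37.2 to 6.09 and 7.16 FPKM (log2 change -2.47, standard error 0.27, adjusted p = 0.000165). Dnmt3a and Dnmt3b, which set new methylation, fell as well, with changes of -3.37 and -3.70. Hells (LSH), a chromatin remodeler, fell from 267 and 251 to 15.0 and 14.7 FPKM (log2 change -4.04, standard error 0.19, adjusted p = 1.25e-05). Suv39h1 and Suv39h2, H3K9 methyltransferases, fell by 4.70 and 3.96, and Ehmt1 (GLP) by 4.46, while its partner Ehmt2 (G9a) was at 31.1 and 26.9 FPKM in WT LZ and 24.3 and 24.4 FPKM in WT PD and was not called. Morc2b was the 1 member that rose, from 1.42 and 2.098 to 109.6 and 88.1 FPKM (log2 change 5.18, standard error 0.55, adjusted p = 0.000141). Of 298 Zfp zinc-finger genes, 120 fell and 57 rose (42.7% and 25.5% of all genes), with a median of -0.49 (-0.65 to 0.075) that turned to 0.075 under quantile normalization and a relative median of 0.062. Zfp740 and the X-linked Zfp711 fell, with changes of -3.88 and -3.48. Zfp389 rose from 11.1 and 9.68 to 185 and 211 FPKM (log2 change 4.13, standard error 0.51, adjusted p = 0.000274), Zfp54 rose by 3.71, Zfp956 by 3.53 and Zfp423 by 3.41.

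Gene structure was compared as a feature outside the rule. Among protein-coding genes, 406 with a single exon had a median change of 0.063, and 28.6% fell and 34.5% rose. Those with at least 2 exons were 12160, with a median of -0.64, 45.4% lower and 24.1% higher. Retrogenes such as Pgk2 are among the single-exon genes. Of 471 genes without a position in the annotation, 14.9% fell and 41.0% rose.

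The stage change was last compared with that in the Cnot4-null libraries, only to show where the WT change differed, by the interaction in the same limma fit. Of 13688 genes, 3697 (27.0%) had a stage change above that of WT and 647 (4.73%) had one below it, 4344 in all. The count fell to 2546 without WT LZ replicate 1, to 1724 without WT PD replicate 1 and to 1614 without WT PD replicate 2. The split depended on scaling, since 85.1% of these differences were above 0, against 43.6% under quantile normalization and 59.8% under rescaling. Genes that fell in WT and had a difference above 0 were 2960, and genes that rose in WT and had one below 0 were 575. The WT libraries enter both sides of these counts. Of 1090 list members, 343 passed, 285 of them above 0.

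On the X chromosome 325 of 526 genes (61.8%) passed with a difference above 0, against 27.0% of all genes, and the median difference was 2.13, against 0.52 for all genes. Under quantile normalization 158 X-linked genes did so (30.0%), with a median of 1.07, against 1550 of all 13688 genes and a median of -0.17. Under rescaling 306 X-linked genes did so (58.2%), with a median of 1.94, against 2953 of all genes and a median of 0.19. The median stage change of X-linked genes was -2.46 in WT and -0.62 in the Cnot4-null libraries, beside medians of all genes of -0.55 and 0.0033. In the Cnot4-null libraries Xrcc4 was at 18.1 and 12.5 FPKM at LZ and 47.1 and 23.9 FPKM at PD, a difference between the stage changes of -2.47 (standard error 0.58, adjusted p = 0.0180). Lrrc6 was at 7.70 and 2.90 and 68.3 and 28.3 FPKM, a difference of -2.56 (standard error 0.68, adjusted p = 0.0279). In both genes the Cnot4-null PD libraries lay below both WT PD libraries and above the Cnot4-null LZ libraries. Markers of other cells moved there too. Insl3, of Leydig cells, stood there at 8.25 and 16.9 FPKM at LZ and 9669 and 21608 FPKM at PD, and Acta2, of myoid cells, at 0.211 and 0 and 42.8 and 209 FPKM. The part of those cells in the differences between genotypes was not tested.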

How the data were processed

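Gene expression was measured by RNA sequencing in sorted spermatocytes, with 4 WT libraries compared here and 4 Cnot4-null libraries fitted with them. The authors mapped trimmed reads to mm9 with TopHat2 2.1.1 and obtained FPKM from the unique ones with Cufflinks 2.2.1, as the submitters' processing notes and methods state. The deposited FPKM values were used as given, 1 per gene symbol and library, and strandedness is not stated. All 23235 symbols were read, including 25 written as dates, which were kept, and 106 short entries (small RNAs) are among the kept genes.

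Genes above 1 FPKM in at least 1 of the 4 WT libraries were kept. A model with 4 groups was fitted to log2(FPKM + 1) of the 8 libraries with limma 3.58.1 in R 4.3.3 (eBayes with a trend, 4 residual degrees of freedom). Two-sided p-values were adjusted within each contrast over the 13688 genes (Benjamini-Hochberg). Called means an adjusted p under 0.05. An exact test of 2 against 2 cannot go below 0.333. Tables and figures were made with Python 3.11.15, numpy 2.4.6, pandas 2.3.3 and matplotlib 3.10.9. The computation was tested on simulated data.

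Positions and exon numbers came from GENCODE vM1, which placed 21945 of the symbols and 13217 of the kept genes, and left 471 without a position. Relative reads per unit of FPKM came from the most common ratio of values among genes below 0.5 FPKM. Promoter windows were matched by symbol and searched on both strands.

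Named genes were the 10 largest called rises and falls with values that did not overlap, without short entries, the called members with the largest changes in each list, up to 4 per direction, Cnot4, the 5 largest X-linked falls and the X-linked rises, and the 5 list members with the largest interaction in each direction. Of the genes so chosen, 1 is not reported here and stays in the counts. Any list member could be named with its value. The members and lists were chosen with earlier results of these data known. The alternatives were other filters on low values, none, another pseudocount, quantile normalization, rescaling, no trend, only the WT libraries, a replicate block, no short entries, a stricter threshold, and each WT library left out in turn.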

Additional observations from a re-analysis of the deposited data

Results flagged for a closer look

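For 343 list members the stage change differed between the genotypes by the interaction test in limma, and the 5 largest in each direction are given. Values are the change in the Cnot4-null libraries minus that in WT on the log2 scale. The 5 largest differences above 0 were those of Insl3 (9.14), Clu (6.48), Cyp17a1 (6.28), Zfp36 (5.86) and Acta2 (5.80). Insl3 stood at 104 and 4.90 FPKM in WT PD, with replicate 1 apart from the other WT libraries, against 9669 and 21608 FPKM in the Cnot4-null PD libraries. Zfp36 fell in WT from 6.38 and 4.52 to 0.246 and 0.301 FPKM, a call lost under both scalings, with the replicate block, without the trend and with any 1 library left out (-2.53 to -2.12), and stood at 14.2 and 139 FPKM in Cnot4-null PD, so that its duplicates there lay far apart. The 5 largest differences below 0 were those of Lrrc6 (-2.56), Xrcc4 (-2.47), Cox7b2 (-2.31), Zfp189 (-2.07) and H2afz (-2.02). H2afz rose in WT and stood at 1003 and 779 FPKM at LZ and 767 and 494 FPKM at PD in the Cnot4-null libraries.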

How the results depend on the processing

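Of 206 named genes, 203 were called, and 183 kept direction and call under every alternative in which they were tested. Genes removed by a stricter filter had no value under it. With all symbols kept, calls were lost by Prm1, Tnp2, Fos, Egr1, Hsf2bp, Polm, Calr3, Gins1, Gm4984, 4930408F14Rik, Gm14354, Ssx9 and Zfp36. At an adjusted p under 0.01, 15 named genes lost their call, and with a pseudocount of 0.1 Ssx9 did. Of 3017 pairs of a gene and an alternative, 0 reversed. The number of genes called lower was 3797 with a filter at a mean of 5 FPKM and 3372 with a mean above 1 FPKM at both stages, where fewer genes were tested. It lay between 4573 and 5419 with 1 WT library left out, and the number called higher between 2738 and 3092. In those fits the lone library of a stage was assumed to vary like the other groups.

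The X-linked median was -0.45 with all symbols kept, where genes at 0 throughout were added. It was -4.04 with a mean of 5 FPKM, -2.96 with 1 FPKM at both stages, -4.20 with a pseudocount of 0.1, -2.05 under quantile normalization and -2.32 under rescaling, and it ranged from -2.51 to -2.37 with a library left out. The number of genes whose stage change differed between genotypes was 2758 and 2199 under the same filters, which tested fewer genes, 1648 at an adjusted p under 0.01, and 1614 to 3194 with a library left out. It could not be had from only the WT libraries.

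Of 37 list medians, 6 changed sign under some alternative. With 1 library left out, transcription regulators ranged from -0.25 to 0.53, Leydig markers from -0.10 to 2.04, macrophage markers from -1.93 to 0.68 and oxidative phosphorylation from -0.011 to 0.094. Translation and poly(A) factors were at 0.021 under rescaling, and under quantile normalization Zfp genes were at 0.075 and oxidative phosphorylation at -0.19. Macrophage markers were at 5.21 with a mean of 5 FPKM and 2.18 with 1 FPKM at both stages. Apart from fewer genes or samples, the cause was not tested.

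The labels give replicate numbers and do not say that they pair libraries. With the replicate block, 5821 genes were called lower, 3495 higher and 4073 differed between genotypes, and the X-linked median was -2.46. As a check of pairing, the difference between replicates correlated at 0.0693 across genes between WT LZ and WT PD, and at -0.0743 to 0.267 for the other pairs of groups. Few reads may limit calls at low levels.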
